A study of Mus musculus with 9 samples.

Results

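Sciatic nerves of PINCH1 mutant mice and of PINCH2 mutant mice were compared directly, with the controls left out of the test. The comparison set the 3 PINCH1 mutant libraries against the 3 PINCH2 mutant libraries, 6 of the 9 libraries of the study. Of the 25965 rows of the count table, each carrying a gene name and a span on the genome, 4305 had at least 10 counts in at least 3 of the 6 libraries and were tested. The tested rows were 16.6% of the table.

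The groups were PINCH1 mutants, PINCH2 mutants and control littermates, all C57BL/6 mice. Tissue was sciatic nerve with the epineurium, the outer sheath, stripped away. Each library was made from a pool of 4 nerves taken from 1 male and 1 female, and each group had 3 such libraries. The age was recorded as postnatal day 15 in one label and as postnatal day 14 in the protocol. The sources used here do not state the alleles, nor any driver line or cell type used to direct the mutation.

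PINCH1 and PINCH2 are close relatives made of LIM domains, zinc-binding modules that bind other proteins, and are encoded by Lims1 and Lims2. Either of them can join integrin-linked kinase and a parvin in a complex that ties integrins at the cell surface to actin, and a given complex holds one PINCH or the other. In peripheral nerve, integrins of the Schwann cell bind the laminins of the basal lamina, and signals from this contact are used by Schwann cells when they sort and myelinate axons.

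A row was said to lie over another when their spans shared at least 1 bp on opposite strands. Such a partner row was found for 24.8% of all rows and for 2458 of the 4305 tested rows. The sources used here do not state whether counting used strand, so reads under a row with a partner cannot be told apart from transcription of the partner, and the partner is named beside each row described. Rows with a partner took 88.7 ± 1.44% of the counts in PINCH1 mutants and 88.4 ± 0.593% in PINCH2 mutants (SD, n = 3 each). The difference of 0.300 percentage points had an exact two-sided permutation p of 0.9, where 0.1 is the smallest p that 3 against 3 libraries allow. Rows with a partner were 57.1% of the rows tested. The most abundant row was mt-Nd6, a mitochondrial subunit gene that lies opposite mt-Nd5, with 94688 to 130509 counts in PINCH1 mutants and 80010 to 122831 in PINCH2 mutants, while mt-Nd5 had 2217 to 4627 in PINCH1 mutants and 2256 to 3602 in PINCH2 mutants. Counts are given under the name the table uses, and whether they come from that strand was not tested for any row, with or without a partner. The functions given with each name are therefore those of the named gene, not a result of these counts. The 6 libraries held 957828 to 1204964 counts, and a row at 0 could hold up to 3 counts, or 2.49 to 3.13 CPM (read counts rescaled to equal depth), from counting error alone. Myelin genes were abundant. The row of Mbp, myelin basic protein, had 2558, 1472 and 2341 counts in PINCH1 mutants and 1535, 2863 and 2182 in PINCH2 mutants.

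The rows of both targeted genes were nearly empty. Lims1, on chromosome 10 from 58323466 to 58424691 on the plus strand of GRCm38, had 0, 1 and 3 counts in PINCH1 mutants and 0, 1 and 9 in PINCH2 mutants, against 3, 7 and 7 in controls. Lims2, on chromosome 18 from 31931507 to 31958619 on the plus strand, had 5, 3 and 1 counts in PINCH1 mutants and 5, 1 and 1 in PINCH2 mutants, against 9, 1 and 5 in controls. The mutant groups overlapped for both genes, and neither row reached the minimum count. Fitted with no minimum, the log2 fold change of PINCH1 over PINCH2 mutants was -1.29 for Lims1 (SE 1.47, edgeR adjusted p = 0.835) and 0.31 for Lims2 (SE 1.37, adjusted p = 0.990). The counts under the names Lims1 and Lims2 did not separate the mutants from each other. In the same libraries Gpr17, which lies inside Lims2 on the opposite strand, held 330, 244 and 425 counts in PINCH1 mutants. It held 113, 151 and 67 in PINCH2 mutants. Whether depth or the strand of counting left the rows of Lims1 and Lims2 nearly empty was not tested.

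Few rows differed between the mutants. With edgeR's quasi-likelihood test and Benjamini-Hochberg adjustment over all 4305 rows at a threshold of 0.05, 5 rows were higher in PINCH1 mutants (0.116% of those tested) and 3 were lower (0.0697%). The rows higher in PINCH1 mutants were Zdhhc17, Gpr17, Cdc23, Exosc9 and Gm10706, and the rows lower were Camk4, RP24-538B17.1 and Afap1l1. The 3 values of one group lay wholly above or below those of the other in 467 tested rows (10.8%), 233 higher in PINCH1 mutants (5.41%) and 234 lower (5.44%). The median log2 fold change over all tested rows was -0.02, and 47.8% of the rows were above 0. Unadjusted p-values were under 0.05 in 238 rows (5.53%), 112 higher in PINCH1 mutants (2.60%) and 126 lower (2.93%). In the plot of fold change against mean count, the called rows spread over a wide range of abundance, with Zdhhc17 the highest and Gm10706 the lowest in mean count.

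**Figure D1:**
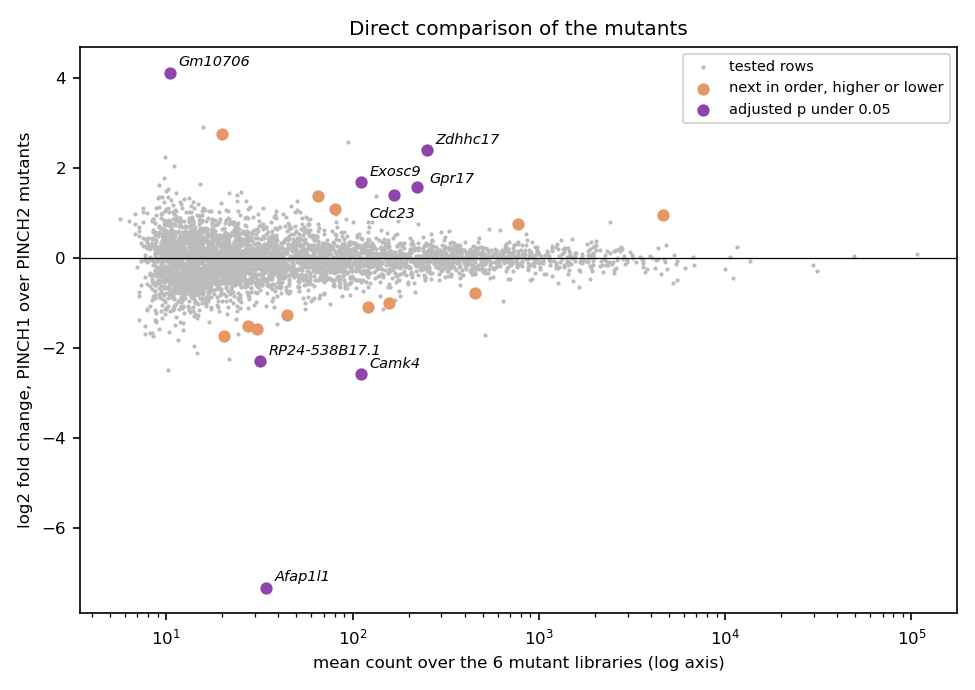
Log2 fold change of PINCH1 over PINCH2 mutants (vertical axis) against the mean count over the 6 mutant libraries (horizontal log axis) for the 4305 tested rows in grey. Purple points are the 8 rows with an adjusted p under 0.05, and orange points are the 12 rows next in order that did not pass; the position of Afap1l1 depends on how the fit treats counts of 0.

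The number of calls moved with single libraries and with the fit. Leaving out 1 library gave 2 higher and 2 lower without PINCH1 mutant replicate 1, 3 and 1 without PINCH1 mutant replicate 3, 10 and 6 without PINCH2 mutant replicate 2, and 2 and 2 without PINCH2 mutant replicate 3. Zdhhc17, Gpr17 and Camk4 stayed under the threshold in all 23 alternatives tried, while each of the other 5 lost its call in at least 3 of them.

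Zdhhc17 encodes a palmitoyltransferase, an enzyme that attaches the fatty acid palmitate to proteins and is known for modifying huntingtin and proteins of vesicle traffic. Its row, on chromosome 10 from 110941782 to 111010066 on the minus strand, held 495, 321 and 451 counts in PINCH1 mutants and 69, 97 and 71 in PINCH2 mutants, against 73, 74 and 93 in controls. Every PINCH1 mutant library was far above every other library, and the PINCH2 mutants overlapped the controls. Scaled to CPM with TMM factors, the row averaged 388 ± 47.4 in PINCH1 mutants and 73.4 ± 5.09 in PINCH2 mutants (SD, n = 3 each). The log2 fold change was 2.40 (SE 0.20), with an adjusted p of 5.48e-07 by edgeR. No row lay over Zdhhc17. The nearest opposite-strand row, 2183 bp away, was Csrp2, a LIM-domain protein of the cytoskeleton, with 19, 9 and 8 counts in PINCH1 mutants and 7, 0 and 3 in PINCH2 mutants, too few to be tested under the minimum.

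The start of Zdhhc17 is shown because that row had the smallest p, and the start of Gm10706 because that row was close to 0 outside the PINCH1 mutants. Both are windows of 300 bases around a start annotated in RefSeq on GRCm38.p6, the one farthest upstream where RefSeq gave several, written 5′ to 3′ with each CG dinucleotide in capitals. The first lies at chr10:111010017-111010316 on the minus strand and the second at chr9:14704199-14704498 on the plus strand, which ends before the start of the row in the count table.
Zdhhc17: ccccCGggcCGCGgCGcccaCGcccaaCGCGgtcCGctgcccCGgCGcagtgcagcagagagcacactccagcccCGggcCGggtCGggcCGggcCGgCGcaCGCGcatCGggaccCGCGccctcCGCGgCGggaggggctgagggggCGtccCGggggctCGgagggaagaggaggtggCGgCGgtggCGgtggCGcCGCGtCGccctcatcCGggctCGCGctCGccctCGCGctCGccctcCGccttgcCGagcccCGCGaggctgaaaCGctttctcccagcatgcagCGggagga
Gm10706: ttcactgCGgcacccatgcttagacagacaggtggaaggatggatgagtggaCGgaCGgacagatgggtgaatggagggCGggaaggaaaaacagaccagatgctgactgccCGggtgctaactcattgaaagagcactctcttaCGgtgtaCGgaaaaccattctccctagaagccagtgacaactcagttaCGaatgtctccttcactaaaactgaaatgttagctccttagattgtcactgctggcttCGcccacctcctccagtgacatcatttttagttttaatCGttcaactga
The Zdhhc17 window had 79.7% G and C and 47 CG dinucleotides, a number reached by 1.44% of 32851 promoter windows of this length. Its other RefSeq window had 43, which 2.61% reached. The Gm10706 window had 48.7% G and C and 10 CG dinucleotides, which 43.5% of the windows reached. The letters were searched on 1 strand, since CG reads the same on both.

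Of 7 tested palmitoylation enzymes, Zdhhc17 included, 4 were above 0 and 3 below, with a median log2 fold change of 0.04, beside -0.02 over all tested rows. Zdhhc17 alone passed. Zdhhc5, a palmitoyltransferase of the plasma membrane that lies opposite Med19, had 297, 275 and 252 counts in PINCH1 mutants and 195, 370 and 327 in PINCH2 mutants, and the groups overlapped (log2 fold change -0.09, SE 0.21). Zdhhc2, opposite Cnot7, stood at 0.20 (SE 0.23) on the log2 scale and Zdhhc3, opposite Tgm4, at -0.50 (SE 0.38).

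Camk4 was the most significant row lower in PINCH1 mutants. It encodes calcium/calmodulin-dependent kinase IV, a kinase that phosphorylates the transcription factor CREB. Its row, on chromosome 18 from 32939041 to 33195767 on the plus strand, held 27, 26 and 43 counts in PINCH1 mutants and 131, 260 and 179 in PINCH2 mutants, against 110, 53 and 136 in controls. The PINCH1 mutants lay below every control library in scaled values and the PINCH2 mutants above every one. The means were 29.3 ± 5.44 CPM in PINCH1 mutants and 175 ± 39.0 CPM in PINCH2 mutants (SD, n = 3 each), a log2 fold change of -2.57 (SE 0.26, edgeR adjusted p = 1.06e-05). No row of the table lay over Camk4, and the nearest opposite-strand row, 3588 bp away, was Stard4. The GENCODE M21 annotation placed the antisense transcript 2310026I22Rik on the opposite strand over 189 bp of Camk4, and Gm22814 also over it.

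Among calcium/calmodulin kinases, calmodulins, calcineurin subunits and Creb1, 8 rows were tested, of which 2 were above 0 and 6 below, with a median of -0.06. Camk4 alone passed. Camk1, another kinase of the family that lies opposite Ogg1, had 47, 56 and 68 counts in PINCH1 mutants and 58, 52 and 71 in PINCH2 mutants (log2 fold change -0.11, SE 0.29). Creb1 had 5 to 12 counts in each of the 6 libraries and a log2 fold change of -0.06 (SE 0.67).

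Gpr17 encodes a G protein-coupled receptor best known from oligodendrocyte precursors of the brain. Its row is nested inside the span of Lims2, on chromosome 18 from 31942997 to 31949636 on the minus strand, over 6640 bp. It held 330, 244 and 425 counts in PINCH1 mutants and 113, 151 and 67 in PINCH2 mutants, against 321, 211 and 380 in controls. The PINCH2 mutants were below all other libraries, and the PINCH1 mutants overlapped the controls. The means were 303 ± 38.6 CPM in PINCH1 mutants and 102 ± 31.2 CPM in PINCH2 mutants (SD, n = 3 each), a log2 fold change of 1.57 (SE 0.23, edgeR adjusted p = 0.00171). Because Gpr17 lies inside the gene mutated in one of the groups, transcription of Gpr17 and of Lims2 cannot be told apart in this row. Bcas1, the other tested marker of the oligodendrocyte lineage, which lies opposite 1700040N02Rik and Gm14259, had 189, 134 and 174 counts in PINCH1 mutants and 178, 234 and 165 in PINCH2 mutants (log2 fold change -0.23, SE 0.19).

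The row of Cdc23, a subunit of the anaphase-promoting complex that ends mitosis, lay on chromosome 18 from 34630951 to 34651735 on the minus strand. Its 3′ end shares 2315 bp with the 3′ end of Kif20a, a kinesin of cytokinesis on the opposite strand. GENCODE M21 also placed n-R5s25 over Cdc23. Cdc23 had 270, 209 and 245 counts in PINCH1 mutants and 53, 142 and 83 in PINCH2 mutants, against 39, 212 and 120 in controls. The PINCH1 mutants were above all PINCH2 mutant libraries in scaled values. Their lowest value, 199 CPM, and the highest control, 198 CPM, were nearly equal and were scaled separately, so they cannot be ranked. Replicate 2 was the highest library both of the PINCH2 mutants and of the controls. The means were 224 ± 22.0 CPM in PINCH1 mutants and 84.1 ± 30.8 CPM in PINCH2 mutants (SD, n = 3 each), a log2 fold change of 1.40 (SE 0.24, edgeR adjusted p = 0.00913). The adjusted p was 0.125 without PINCH1 mutant replicate 1, 0.150 without PINCH2 mutant replicate 3 and 0.774 when control libraries joined the fit, within a range of 7.71e-06 to 0.774 over all alternatives. Kif20a itself had 886, 966 and 1053 counts in PINCH1 mutants and 457, 736 and 552 in PINCH2 mutants. Its groups did not overlap, yet its log2 fold change of 0.75 (SE 0.18) did not pass (edgeR adjusted p = 0.123).

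Exosc9, a subunit of the RNA exosome that degrades and trims RNA, lay on chromosome 3 from 36552606 to 36565729 on the plus strand. Its 3′ end shares 864 bp with that of Ccna2, the cyclin of S phase and of entry into mitosis. The row held 203, 119 and 184 counts in PINCH1 mutants and 25, 94 and 40 in PINCH2 mutants, against 24, 150 and 58 in controls. Again replicate 2 was the highest library of the PINCH2 mutants and of the controls, and the control range covered values of both mutant groups. The means were 154 ± 25.2 CPM in PINCH1 mutants and 47.3 ± 26.5 CPM in PINCH2 mutants (SD, n = 3 each), a log2 fold change of 1.69 (SE 0.31, edgeR adjusted p = 0.0294). Without PINCH1 mutant replicate 1, 2 or 3 the adjusted p was 0.230, 0.0702 or 0.0840, and without PINCH2 mutant replicate 3 it was 0.371, within a range of 3.37e-07 to 0.774 over all alternatives. Ccna2 had 196, 215 and 265 counts in PINCH1 mutants and 127, 120 and 130 in PINCH2 mutants, with no overlap, and its log2 fold change of 0.82 (SE 0.21) did not pass (edgeR adjusted p = 0.189).

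A similar arrangement was met at Oraov1, known in yeast for maturing an iron-sulfur protein of the ribosome cycle. Oraov1 is on chromosome 7 from 144915100 to 144930748 on the plus strand and shares 818 bp at its 3′ end with Ccnd1, the cyclin of G1 phase. Its row held 6057, 6105 and 6114 counts in PINCH1 mutants and 2010, 5049 and 2647 in PINCH2 mutants, against 2754, 5842 and 3449 in controls. The PINCH1 mutants were the more abundant group with no overlap, but the log2 fold change of 0.96 (SE 0.22) did not pass (edgeR adjusted p = 0.123). It passed without PINCH2 mutant replicate 2, the highest of its group, with a log2 fold change of 1.30 and an adjusted p of 0.00263 in a range of 1.53e-05 to 1.00 over all alternatives. Ccnd1 had 121, 108 and 166 counts in PINCH1 mutants and 118, 160 and 119 in PINCH2 mutants, and its log2 fold change was -0.03 (SE 0.21).

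**Figure D2:**
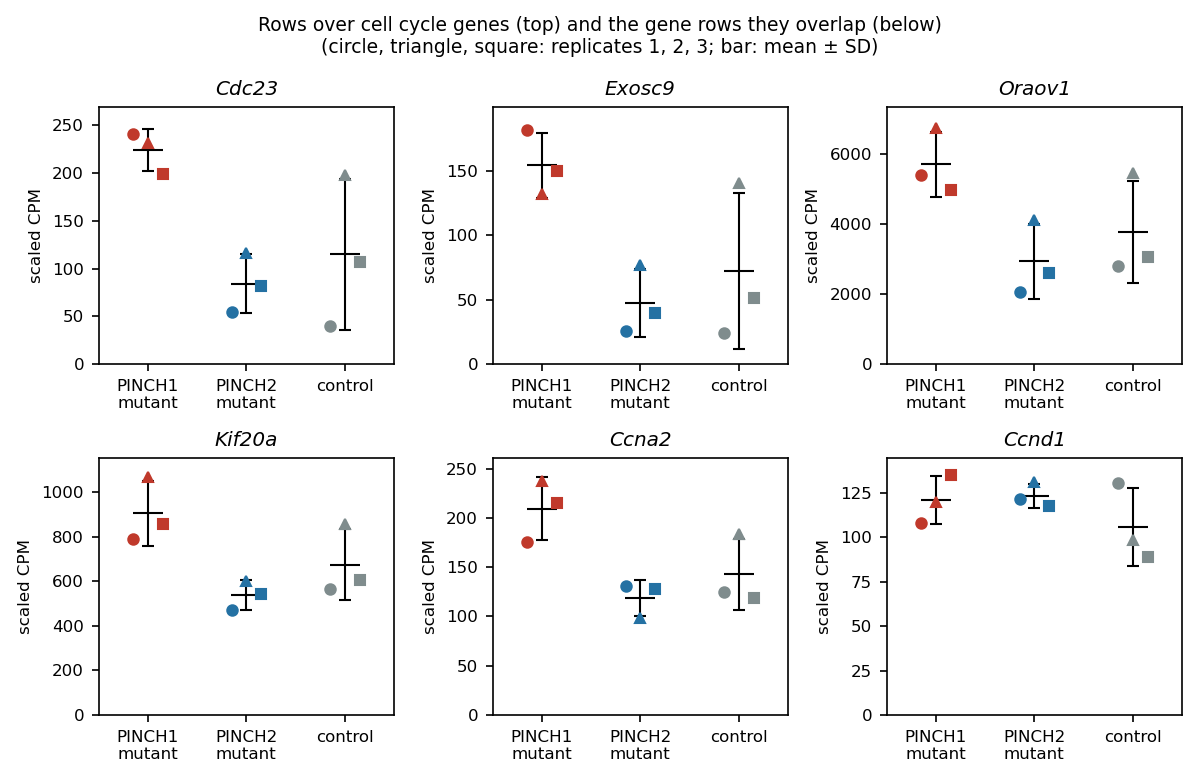
TMM-scaled CPM of Cdc23, Exosc9 and Oraov1 (top) and of the rows they overlap, Kif20a, Ccna2 and Ccnd1 (below), in PINCH1 mutants, PINCH2 mutants and controls. Circles, triangles and squares are replicates 1, 2 and 3, and bars are the mean ± SD of 3 libraries; PINCH1 mutants lie above PINCH2 mutants in every panel but that of Ccnd1, and the triangle is the highest PINCH2 mutant and control in all 3 upper panels.

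Read by their own names, 9 cell cycle genes were tested, of which 5 were above 0 and 4 below, with a median log2 fold change of 0.09. None of the 9 passed, and Kif20a, Ccna2 and Cdkn1c had no overlap between the groups. Read by the rows lying over them, 5 rows were tested and all were above 0, with a median of 0.96 beside -0.02 over all tested rows, 2 calls (0.186% over all tested rows) and 4 rows with no overlap between the groups (10.8% over all tested rows). Those 5 rows were Cdc23, Exosc9, Oraov1, Elovl1 over Cdc20 at 0.64 (SE 0.33) and Ints8 over Ccne2 at 0.36 (SE 0.48), the last of which overlapped between the groups. Cdc23, Exosc9 and Oraov1 had already been picked by p in these data, and the median is the value of Oraov1. The summary of these rows is therefore not separate support. Mki67, the usual marker of dividing cells, had 21, 22 and 21 counts in PINCH1 mutants and 22, 37 and 21 in PINCH2 mutants, and its groups overlapped (log2 fold change -0.31, SE 0.37). Cdkn1c, an inhibitor of cyclin-dependent kinases, had 41, 25 and 36 counts in PINCH1 mutants and 9, 19 and 14 in PINCH2 mutants, with a log2 fold change of 1.26 (SE 0.38) that did not pass (edgeR adjusted p = 0.372).

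Gm10706 is annotated as antisense and is nested inside Piwil4, a PIWI protein of the germ line, on chromosome 9 from 14704642 to 14719058 on the plus strand. It had 25, 11 and 24 counts in PINCH1 mutants and 2, 1 and 0 in PINCH2 mutants, against 3, 0 and 0 in controls. Only the PINCH1 mutant libraries exceeded the 3 counts that a library at 0 allows. The summed counts, 60 in PINCH1 mutants and 3 in PINCH2 mutants, gave a depth-scaled ratio of 19.7 with a 95% interval of 6.44 to 98.4 that covers counting error only. The adjusted p was 0.0390 by edgeR, and the row met the minimum count only through the PINCH1 mutants. It was 0.473 without PINCH1 mutant replicate 1, 0.230 without PINCH1 mutant replicate 3, 0.0698 without PINCH2 mutant replicate 2 and 0.188 without PINCH2 mutant replicate 3, in a range of 0.000999 to 0.473 over the alternatives that gave one. Piwil4 had 0, 0 and 4 counts in PINCH1 mutants and 0 in each PINCH2 mutant.

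RP24-538B17.1, a long intergenic noncoding RNA on chromosome 10 from 4391587 to 4396424 on the plus strand, was lower in PINCH1 mutants. It had 15, 9 and 9 counts in PINCH1 mutants and 47, 45 and 67 in PINCH2 mutants, against 54, 55 and 34 in controls. The PINCH1 mutants were below every other library and the PINCH2 mutants overlapped the controls. The means were 10.2 ± 3.05 CPM in PINCH1 mutants and 50.4 ± 14.8 CPM in PINCH2 mutants (SD, n = 3 each), a log2 fold change of -2.29 (SE 0.38, edgeR adjusted p = 0.00913). The adjusted p was 0.0840 without PINCH1 mutant replicate 3 and 0.150 without PINCH2 mutant replicate 3, in a range of 3.06e-05 to 0.150 over all alternatives. No row lay over it, and the nearest opposite-strand row, 3479 bp away, was Zbtb2 with 0 to 3 counts in each mutant library.

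Afap1l1 encodes an actin filament-associated protein found in podosomes, adhesive structures rich in actin. Its row, on chromosome 18 from 61730261 to 61786702 on the minus strand, had 0, 0 and 1 counts in PINCH1 mutants and 78, 21 and 107 in PINCH2 mutants, against 40, 5 and 59 in controls. Only the PINCH1 mutant libraries stayed within the 3 counts that a row at 0 allows. Replicate 2 was the lowest library of both the PINCH2 mutants, at 21 counts, and the controls, at 5 counts, which is close to that limit. With 1 count in PINCH1 mutants and 206 in PINCH2 mutants, the depth-scaled ratio of PINCH2 over PINCH1 mutants was 209 with a 95% counting interval of 37.0 to 8284. The adjusted p was 0.00913 by edgeR, and the row met the minimum count only through the PINCH2 mutants. It was 0.230, 0.236 and 0.461 without PINCH1 mutant replicate 1, 2 or 3, and 0.0508 without PINCH2 mutant replicate 1, in a range of 1.17e-25 to 0.546 over all alternatives. No row of the table lay over Afap1l1, and GENCODE M21 placed the antisense transcript 1500015A07Rik over 5657 bp of it.

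**Figure D3:**
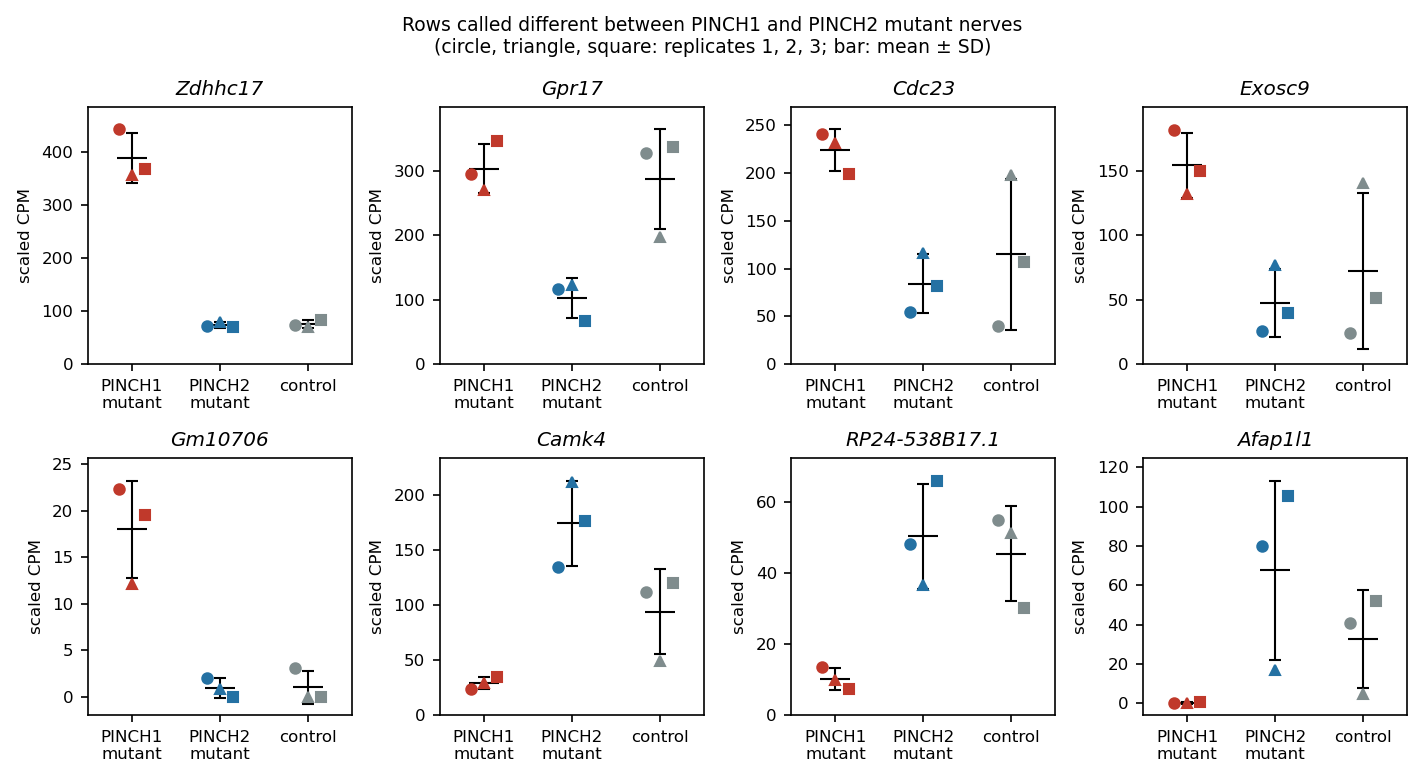
TMM-scaled CPM of the 8 called rows in PINCH1 mutants, PINCH2 mutants and controls, with circles, triangles and squares for replicates 1, 2 and 3 and bars for the mean ± SD of 3 libraries. PINCH1 mutants are above both other groups for Zdhhc17 and Gm10706, and for Cdc23 only by 199 against 198 CPM in the nearest control. They are below both for Camk4, RP24-538B17.1 and Afap1l1, while for Gpr17 it is the PINCH2 mutants that lie below the controls.

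Set beside the controls, which took no part in the test, the called rows did not all differ through the same mutant. The PINCH1 mutants lay outside the control range for Zdhhc17, Cdc23 and Gm10706, which were above it, and for Camk4, RP24-538B17.1 and Afap1l1, which were below it. For Cdc23 the margin was 199 against 198 CPM, values that were scaled separately. The PINCH2 mutants lay outside it for Gpr17, below, and for Camk4, above. Exosc9 was inside or across the control range in both mutants. These positions were not tested.

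The calls were also read by chromosome. Chromosome 18, which carries Lims2, held 4 of the 8 calls among its 76 tested rows, or 5.26%, with 2 higher and 2 lower in PINCH1 mutants. Chromosome 10, which carries Lims1, held 1 higher and 1 lower among 199 tested rows. The other chromosomes together held 2 calls among 4030 tested rows. Groups did not overlap in 25% of the tested rows on chromosome 18, 11.1% on chromosome 10 and 10.6% elsewhere, beside 10.8% over all tested rows. Afap1l1 on chromosome 18 and Gm10706 on chromosome 9 met the minimum count only through the group where they were high, and without them chromosome 18 held 3 of 6 calls. No test was made of these shares.

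On chromosome 18, rows with no overlap between the groups were more frequent near Lims2 than over the whole chromosome (25%). Within 5 Mb of Lims2, 29 rows were tested, of which 11 (37.9%) had no overlap between the groups and 3 were called. Gpr17 lay inside the gene, Camk4 at 0.980 Mb and Cdc23 at 2.67 Mb toward higher coordinates. Afap1l1 lay 29.8 Mb away. Within 5 Mb of Lims1, 14 rows were tested, with 0 calls by edgeR, DESeq2 or limma-voom, 0 rows at an unadjusted p under 0.05 and 1 row with no overlap. This was Mcm9, a helicase of DNA repair opposite Asf1a, with 44, 33 and 51 counts in PINCH1 mutants and 29, 29 and 21 in PINCH2 mutants. The called rows of chromosome 10, RP24-538B17.1 and Zdhhc17, lay 53.9 Mb and 52.5 Mb from Lims1, on opposite sides of it.

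The 11 rows near Lims2 with no overlap moved in both directions, 7 higher and 4 lower in PINCH1 mutants. Besides Gpr17, Camk4, Cdc23 and Kif20a they were Slc25a46, a protein of the mitochondrial outer membrane opposite B930094E09Rik, Gypc, a glycophorin of the red cell membrane, Pkd2l2, a polycystin-like channel opposite Fam13b, Hspa9, the mitochondrial Hsp70, Ecscr of endothelial cells opposite 1700066B19Rik, Sra1, and Tmco6 opposite Ndufa2. Gypc met the minimum count only through the PINCH1 mutants. Gpr17 lies inside Lims2, and Cdc23 and Kif20a lie over each other. Apart from these and Camk4, every one of the 11 had an edgeR adjusted p of 0.847 or more. Mean counts were as low as 7.5 for Tmco6, 9.33 for Gypc and 12.7 for Slc25a46. Ecscr had 13, 14 and 7 counts in PINCH1 mutants and 19, 26 and 22 in PINCH2 mutants, against 33, 36 and 30 in controls, so that both mutants were below the controls. Pkd2l2 had 1032, 792 and 1020 counts in PINCH1 mutants and 1256, 1318 and 1014 in PINCH2 mutants, a log2 fold change of -0.36 (SE 0.17) that did not pass (edgeR adjusted p = 0.847). Of the 11, the PINCH1 mutants lay outside the control range in 5, the PINCH2 mutants in 4, both in 2 and neither in 4. Among the 5, Cdc23 (199 against 198 CPM) and Slc25a46 (10.57 against 10.64 CPM) were outside by narrow margins. The sources used here do not state which strain the chromosome around each mutated gene came from, and the part of chromosomal origin in these differences was not tested.

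**Figure D4:**
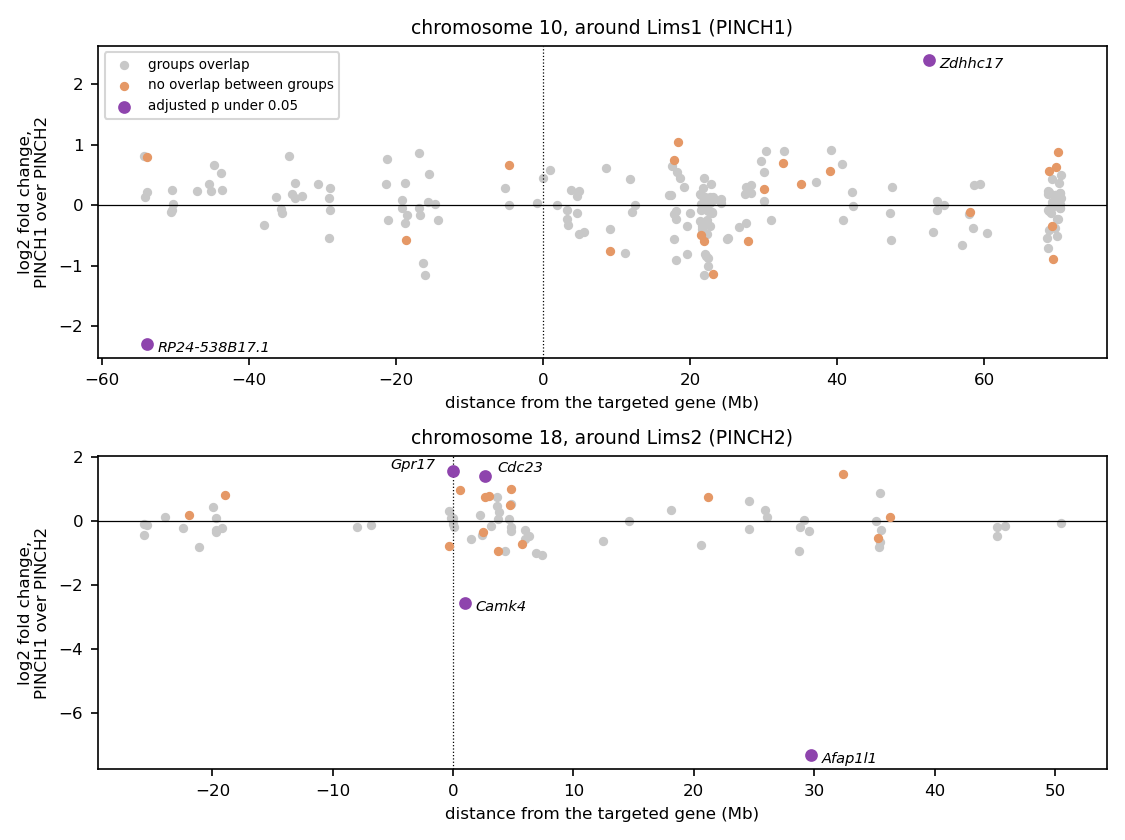
Log2 fold change of PINCH1 over PINCH2 mutants for the tested rows of chromosome 10 by distance from Lims1 (top) and of chromosome 18 by distance from Lims2 (below), in Mb, with the targeted gene at 0. Purple points are called rows and orange points are other rows with no overlap between the groups; 11 of the 29 rows within 5 Mb of Lims2 had none, purple ones included, against 1 of 14 within 5 Mb of Lims1.

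Of the list members other than Zdhhc17, Camk4, Gpr17, Cdc23 and Exosc9, none passed by edgeR, while DESeq2 also called Pxn, Kif20a and Oraov1 and limma-voom called no further row. For the integrin-linked kinase complex and other proteins of integrin adhesions, of 8 tested members 6 were above 0 and 2 below, with a median log2 fold change of 0.14. Ilk, the kinase-like core to which both PINCH proteins bind, whose row lies opposite Rrp8 and Taf10, had 211, 151 and 199 counts in PINCH1 mutants and 189, 236 and 176 in PINCH2 mutants, and its groups overlapped (log2 fold change -0.12, SE 0.19). Rsu1, which binds PINCH1, had 13, 9 and 17 counts in PINCH1 mutants and 13, 11 and 9 in PINCH2 mutants (0.19, SE 0.53). Parva, a parvin that links the complex to actin and lies opposite A230071N21Rik, was at 0.13 (SE 0.34) on the log2 scale, and Itgb1, the integrin beta 1 chain, was at 0.20 (SE 0.21). Rows over the list's genes other than Gpr17 ran from -0.08 at Creb3, over Tln1 and Gba2, to 0.31 at Epha1, over Zyx.

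Paxillin, an adaptor of focal adhesions, stood apart in this group. Pxn had 282, 74 and 230 counts in PINCH1 mutants and 72, 62 and 79 in PINCH2 mutants, against 55, 93 and 145 in controls. PINCH1 mutant replicate 2 was close to the PINCH2 mutants, and the other PINCH1 mutant libraries were well above them. The log2 fold change of 1.37 (SE 0.34) did not pass (edgeR adjusted p = 0.227). Without PINCH1 mutant replicate 2 it was 1.71 with an adjusted p of 0.00210, in a range of 7.51e-05 to 1.00 over all alternatives.

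The lists next to the complex gave no call either. Schwann cell integrins, dystroglycan and basal lamina genes had 10 of 17 tested members above 0, a median of 0.06 and no row without overlap. Lamb1, a laminin chain, had 174, 104 and 140 counts in PINCH1 mutants and 68, 158 and 92 in PINCH2 mutants (log2 fold change 0.40, SE 0.25). This was the highest value of the list, and Itga6, its most abundant member, was at 0.23 (SE 0.21). Genes of the actin cytoskeleton and targets of serum response factor had 4 of 11 above 0 and a median of -0.11. The highest was Tpm4, a tropomyosin opposite Gm16091, at 0.91 (SE 0.39, edgeR adjusted p = 0.823). The most abundant, Vim and Tmsb4x, were at -0.11 (SE 0.21) and -0.14 (SE 0.26).

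No myelin gene passed. Of 19 tested myelin proteins, 3 were above 0 and 16 below, with a median of -0.07, beside -0.02 over all tested rows. Pmp22, a protein of compact myelin, had 4569, 3483 and 4163 counts in PINCH1 mutants and 3658, 4774 and 3743 in PINCH2 mutants (log2 fold change -0.00, SE 0.15). The members above 0 were Pmp2, a fatty acid-binding protein of myelin, at 0.62 (SE 0.29), Gjc3, a connexin, at 0.61 (SE 0.33), and Ugt8a, which makes the myelin lipid galactosylceramide, at 0.29 (SE 0.21). Drp2 and Prx, which work together in the appositions of the Schwann cell surface, had no overlap between the groups, at -0.52 (SE 0.20) and -0.30 (SE 0.19). With Gjb1 they were 3 of the 19 members without overlap, beside 10.8% of all tested rows. A joint change of Drp2 and Prx was not tested. Prx lies opposite Gm15541. Gjb1, the gap junction protein connexin 32 of noncompact myelin, had 3 counts in each of the PINCH1 mutants and 11, 22 and 19 in PINCH2 mutants, against 7, 19 and 17 in controls. Its log2 fold change of -2.48 (SE 0.66) did not pass (edgeR adjusted p = 0.219), with a range of 0.191 to 0.944 over all alternatives. Gjb1 met the minimum count only through the PINCH2 mutants, and its PINCH1 mutant counts did not exceed the 3 that a row at 0 allows.

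Regulators of myelination lay on both sides of 0 and none passed. Of 12 tested transcription factors, 7 were above and 5 below, with a median of 0.13. Egr2, which turns on myelin genes, had 20, 18 and 26 counts in PINCH1 mutants and 12, 23 and 47 in PINCH2 mutants, and Sox10, which keeps Schwann cell identity, had 38, 24 and 28 in PINCH1 mutants and 30, 40 and 53 in PINCH2 mutants. Both overlapped between the groups, at -0.39 (SE 0.44) and -0.47 (SE 0.34). The 2 most abundant factors also overlapped. Zeb2, opposite Gm13476, was at 0.23 (SE 0.19). Nab2, opposite Stat6, Gm16229 and Tmem194, was at -0.01 (SE 0.20). Of the genes of immature and repair Schwann cells, 3 were tested, with Ngfr, the low-affinity neurotrophin receptor, at 0.10 (SE 0.66). Cholesterol and fatty acid synthesis had 9 of 20 above 0 and a median of -0.08, with Hmgcs1, an early enzyme of the cholesterol pathway, at -0.12 (SE 0.21).

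Housekeeping groups gave no call. Cytosolic ribosomal proteins had 34 of 68 members above 0 and 34 below, with a median of 0.00 and members from -0.77 to 1.06. Nuclear genes of the respiratory chain had 8 of 19 above 0 and a median of -0.13, and the 13 protein genes of the mitochondrial genome had 2 above 0 and a median of -0.12. Stress, heat shock and immediate early genes had 6 of 9 above 0 and a median of 0.20. Mt2, a metallothionein that binds zinc and copper, had 5, 4 and 9 counts in PINCH1 mutants and 23, 13 and 31 in PINCH2 mutants, against 34, 9 and 47 in controls. Its log2 fold change of -1.95 (SE 0.54) was the lowest of the list and did not pass (edgeR adjusted p = 0.229). Jund, opposite Gm11175, and Ddit3, opposite Gm4189 and Mars, were the most abundant members, at 0.11 (SE 0.18) and 0.20 (SE 0.26). Mt2 met the minimum count only through the PINCH2 mutants.

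**Figure D5:**
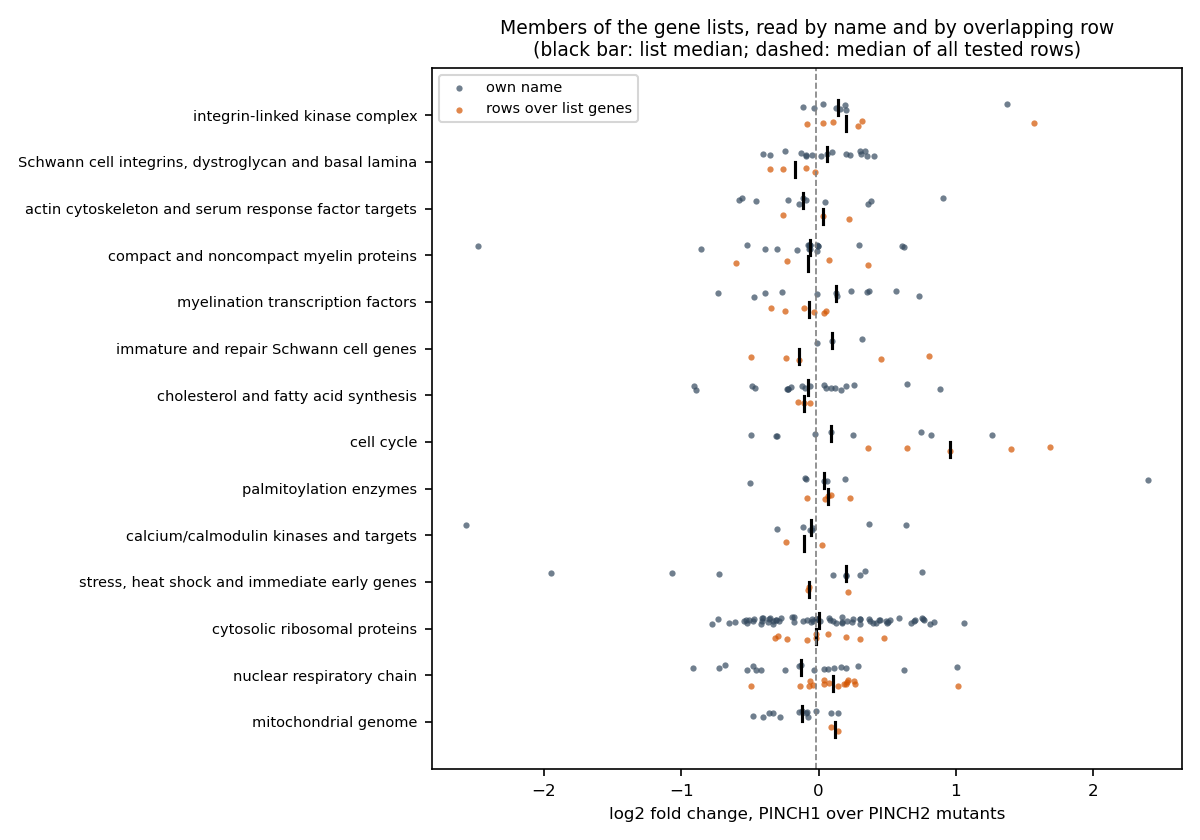
Log2 fold change of PINCH1 over PINCH2 mutants for the tested members of 14 gene lists, read by the row of that name (blue) and by rows lying over the list's genes (orange). Black bars are list medians and the dashed line is the median of all tested rows, -0.02. The rows over cell cycle genes, at a median of 0.96, are the group farthest to the right. They include Cdc23, Exosc9 and Oraov1, already picked by p in these data.

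Markers of cell types were read in the same way. The 10 tested markers of myelinating Schwann cells were all below 0, with a median of -0.11 and none passing, and their summed level was 10437 to 13229 CPM in PINCH1 mutants and 10774 to 12712 CPM in PINCH2 mutants, against 13526 to 17190 CPM in controls. The 5 tested fibroblast markers were all at or above 0, with a median of 0.23 and none passing, and their sum was 781 to 936 CPM in PINCH1 mutants and 546 to 912 CPM in PINCH2 mutants. In whole nerve, fewer cells of a type and less RNA per cell cannot be told apart. Of 6 keratinocyte markers 1 was tested, and the markers summed to 63.9 to 69.9 CPM in PINCH1 mutants and 28.6 to 61.4 CPM in PINCH2 mutants, against 9.6 to 33.6 CPM in controls, mostly from Krt10, which lies opposite Gm11940. Mast cell, lymphocyte, skeletal muscle and adipocyte markers had no tested row. The part of cell composition in the called rows was not tested.

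Replicate 2 of every group stood apart in a set of mitochondrial rows. The counts of mt-Co2, mt-Co3, mt-Atp6, mt-Atp8, mt-Nd3 and mt-Nd4l summed to 1937, 262 and 6689 in replicates 1, 2 and 3 of the PINCH1 mutants and to 4507, 20 and 5003 in those of the PINCH2 mutants, against 1976, 109 and 7806 in controls. Over all tested rows, 97 (2.25%) were lower and 73 (1.70%) higher in the 3 libraries numbered 2 than in the other 6. Without replicate 2 of both mutants, 10 rows were higher and 4 lower in PINCH1 mutants, and 7 of the 8 called rows kept their call, all but Gm10706.

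The rows next in order of significance did not pass. Of those with no overlap between the groups and a mean of at least 20 counts, 5 were higher in PINCH1 mutants, with adjusted p from 0.0554 to 0.123 by edgeR, and 7 were lower, with adjusted p from 0.0554 to 0.211. Higher, besides Kif20a and Oraov1, was AC163993.1, inside the glutamate transporter gene Slc1a1, with 45, 13 and 47 counts in PINCH1 mutants and 1, 11 and 3 in PINCH2 mutants. Dnahc11, a dynein chain of cilia whose 3′ end meets that of Cdca7l, had 98, 103 and 130 counts in PINCH1 mutants and 50, 63 and 41 in PINCH2 mutants. Gm10483, at the 3′ end of the teneurin gene Odz1, had 71, 83 and 127 in PINCH1 mutants and 19, 62 and 28 in PINCH2 mutants. Its highest PINCH2 mutant library was again replicate 2.

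On the lower side, Cttnbp2nl, a relative of a cortactin-binding protein, had 94, 108 and 112 counts in PINCH1 mutants and 200, 258 and 174 in PINCH2 mutants, with an adjusted p of 0.0554 by edgeR. No row of the table lay over Cttnbp2nl, and GENCODE M21 placed Gm40117 over it. Dolpp1, an enzyme of the dolichol cycle of N-glycosylation, had 27, 20 and 33 in PINCH1 mutants and 65, 62 and 60 in PINCH2 mutants, and shares 59 bp with Crat, carnitine acetyltransferase. Flad1, which makes the cofactor FAD, had 9, 13 and 22 in PINCH1 mutants and 51, 36 and 34 in PINCH2 mutants, and no row lay over it. Clcn1, a chloride channel of muscle opposite Fam131b, had 11, 3 and 15 in PINCH1 mutants and 25, 37 and 32 in PINCH2 mutants. The remaining rows were 1700020L24Rik opposite the metalloprotease gene Mmp28, Gm16256 opposite the start of Rapgef3, an exchange factor activated by cyclic AMP, and Gm13110, with log2 fold changes of -0.78, -1.58 and -1.08. Over called and following rows together, 13 of 20 had a partner row, beside 57.1% of all tested rows, and 4 of the 8 called rows had one.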

How the data were processed

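The authors deposited a table of unscaled read counts, 1 column per library. The submitters' processing notes name Trim Galore 0.4.2, cutadapt 1.9.1, HISAT2 2.0.5 and the mouse build GRCm38. The sources used here do not name the counting tool, its strand setting or the annotation release. Of the row identifiers, 96.4% were in GENCODE M21, which supplied gene types. Spans, strands and overlaps came from the deposited table.

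Rows with at least 10 counts in at least 3 of the 6 mutant libraries were tested with edgeR 4.0.16 in R 4.3.3 (quasi-likelihood F-test, robust dispersion, TMM scaling, genotype as the only term). Benjamini-Hochberg adjustment ran over the 4305 tested rows, and 0.05 was the threshold. The SE was taken from the log2 fold change and the F statistic (its size over the root of F). CPM of single rows are TMM-scaled, and their control CPM come from a scaling of all 9 libraries. Summed CPM of markers, and the CPM of 3 counts, were scaled by library totals only. Of the tested rows, 34 reached the minimum through 1 group only. The procedure was tested on simulated data. Replicates were pools of animals, so p-values measure the spread between pools. Intervals cover counting error only, and 83.5% of counts between 1 and 4 were odd numbers, against 50.1% of counts above 50. The intervals and the limit of 3 counts treat each count as independent, which was not tested, so both may be too narrow.

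Named were Lims1, Lims2, all called rows, then rows next in order of p with no overlap and a mean of at least 20 counts, up to 10 in each direction in all, the partners of these rows, and in each list any called member or else the 2 most abundant. Other list members, and rows near Lims2, were picked once values had been seen. The comparison, the lists and the rules were chosen with earlier results of these data known. Alternatives were RLE, upper-quartile and total-count scaling, TMM without the 20 most abundant rows or by class of row, 3 other filters, no robust option, all 9 libraries, a replicate block, thresholds of 0.01 and 0.1, a change of at least 1.5-fold, each library left out, DESeq2 1.42.0, limma-voom (limma 3.58.1), and, added after seeing the data, replicate 2 left out of both groups. Promoter windows were read from RefSeq for 7 of the 20 named rows, those on chromosome 18 not being used. Some genes and lists are not reported here.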

Additional observations from a re-analysis of the deposited data

How the results depend on the processing

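Of 5 rows higher and 3 lower in PINCH1 mutants, the count higher was 3 with library totals only, 3 with no robust option, 13 with no minimum count, 2 with all 9 libraries, 3 at an adjusted p of 0.01, 8 at 0.1, 2 for a change of at least 1.5-fold, 11 by DESeq2 and 10 without replicate 2 of both groups, an alternative chosen after seeing the data. The count lower was 7 with no minimum count, 5 at an adjusted p of 0.1, 5 by DESeq2 and 1 by limma-voom. Leaving out 1 library gave 2 to 10 higher and 1 to 6 lower. The cause of these shifts was not tested, except that a stricter threshold or a wider set of rows changes the count by construction. No value reversed its direction past a threshold in any alternative.

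With the replicate number as a block, 5 rows were higher and 3 lower. Gm10706 lost its call and Oraov1 gained one, and 7 of the 8 called rows were shared. Over all tested rows, the correlations of same-numbered deviations were 0.046, 0.049 and -0.011, which did not meet the bar set for pairing (each over 0.1), although the libraries numbered 2 shared low counts of 6 mitochondrial rows. Scaling moved the median log2 fold change of all rows from -0.02 to between -0.02 and 0.00. Requiring 100 bp of overlap left 2320 tested rows with a partner, against 2458.

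At 957828 to 1204964 counts per library, with a median row mean of 30.2 counts, small changes of weak rows were not detectable. Lims1 and Lims2 were among the rows too low to test.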
